A study of Mus musculus with 6 samples.

Results

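The transcripts of 4 receptor genes were followed in single B cells from mice undergoing a germinal center (GC) reaction, in 6 RNA-seq libraries. They were Tnfrsf13c, which encodes the BAFF receptor (BAFF-R), Tnfrsf13b, which encodes TACI, Tnfrsf17, which encodes BCMA, and Fas, which encodes the death receptor FAS (CD95). They were chosen by symbol among the 31053 features of the count tables, each symbol matched 1 feature, and each had UMIs in all 6 libraries. Of the libraries, 3 are labelled Cgamma1-Cre wild-type control (Smc3 wt/wt) and 3 are labelled Cgamma1-Cre Smc3 heterozygous (Smc3 wt/-). Both groups therefore carry the Cre, whose Cγ1 locus is switched on as B cells enter the GC. Per the methods of the study, the cells were sorted from spleens 8 days after immunization with sheep red blood cells. The labels give neither the age nor the strain of the mice. The methods count as many mice of each genotype as there are libraries, with the further wild-type libraries that were not analysed here, but do not tie a library to a mouse. The p-values measure the spread between libraries.

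BAFF and APRIL are soluble ligands of the TNF family that keep B-lineage cells alive. BAFF-R binds BAFF only and is the main survival receptor of mature naive B cells, TACI binds both ligands, and BCMA binds both with a preference for APRIL and is known for the survival of long-lived plasma cells. BAFF-R signals by removing TRAF3, which frees the kinase NIK (Map3k14) to start the alternative NF-kB pathway. FAS recruits FADD and caspase 8 to start apoptosis, and its high surface level is a classical mark of GC B cells. The study's flow cytometry gated GC B cells as FAS high and CD38 low, and the gate used for these libraries is not stated, so the range of Fas levels may have been touched by the sort.

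The genes lie on different chromosomes in GRCm38 (GENCODE M21). Tnfrsf13c (ENSMUSG00000068105) is at chr15:82221743-82224369 on the minus strand, Tnfrsf13b (ENSMUSG00000010142) at chr11:61126755-61149372, Tnfrsf17 (ENSMUSG00000022496) at chr16:11313812-11320074 and Fas (ENSMUSG00000024778) at chr19:34290666-34327772, the last 3 on the plus strand. Tnfrsf13b overlaps the processed pseudogene Gm12269 on the opposite strand, and Fas overlaps the small RNA gene Gm27818 on its own strand. The 250 bases upstream of each start site are shown because Tnfrsf13c and Tnfrsf17 changed in opposite directions between GC and plasma-lineage cells. They are from RefSeq (GRCm38.p6), written 5′ to 3′ on the strand of the gene, at chr15:82224381-82224630 (minus strand), chr11:61126505-61126754, chr16:11313559-11313808 and chr19:34290409-34290658. Capitals mark matches on either strand to an NF-kB type site (GGG and CC with 5 bases of any kind between them), an E-box (CAGNTG) and an interferon response type site (GAAA and GAAA with 2 bases between them), and no matches of different motifs overlap.
Tnfrsf13c: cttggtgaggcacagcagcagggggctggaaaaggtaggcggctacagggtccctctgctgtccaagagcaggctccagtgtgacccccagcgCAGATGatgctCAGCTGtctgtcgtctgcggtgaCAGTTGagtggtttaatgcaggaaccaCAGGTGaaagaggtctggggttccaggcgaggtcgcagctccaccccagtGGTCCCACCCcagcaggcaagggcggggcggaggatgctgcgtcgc
Tnfrsf13b: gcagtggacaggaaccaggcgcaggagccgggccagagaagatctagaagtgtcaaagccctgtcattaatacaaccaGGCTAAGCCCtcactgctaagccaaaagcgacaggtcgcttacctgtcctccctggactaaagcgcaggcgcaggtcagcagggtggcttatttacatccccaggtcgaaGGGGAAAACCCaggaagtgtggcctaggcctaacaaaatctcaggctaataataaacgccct
Tnfrsf17: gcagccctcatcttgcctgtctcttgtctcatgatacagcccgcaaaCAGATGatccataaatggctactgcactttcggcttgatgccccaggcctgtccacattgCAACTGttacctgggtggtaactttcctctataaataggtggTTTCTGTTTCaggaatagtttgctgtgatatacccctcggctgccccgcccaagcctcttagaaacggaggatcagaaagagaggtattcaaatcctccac
Fas: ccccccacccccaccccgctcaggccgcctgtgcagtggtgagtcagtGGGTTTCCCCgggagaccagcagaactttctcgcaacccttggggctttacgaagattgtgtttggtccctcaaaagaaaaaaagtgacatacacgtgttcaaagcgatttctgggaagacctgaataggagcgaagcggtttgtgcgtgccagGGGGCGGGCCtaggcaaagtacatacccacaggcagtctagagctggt
The NF-kB type letters were found 1 time upstream of Tnfrsf13c, 3 times upstream of Tnfrsf13b, where 2 of the matches overlap each other, and 2 times upstream of Fas, and were not in the Tnfrsf17 window. E-box letters occurred 4 times upstream of Tnfrsf13c and 2 times upstream of Tnfrsf17, and the interferon response type letters occurred 1 time, upstream of Tnfrsf17. The composite site of Ets and IRF factors (GGAA and GAAA with 2 bases between them) was in none of the 4 windows. Over 32851 mouse promoter windows these patterns were present in 45.8%, 44.8%, 2.98% and 2.3%, in the order NF-kB type, E-box, interferon response type and composite. A match is a description of the letters only.

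Of 22939 barcodes, 20847 cells were kept, between 1013 and 4971 per library, from libraries of 5223325 to 35354257 UMIs. Pairs of libraries shared between 4 and 43 barcodes. Clusters were built without the 4 receptors, the gene lists used below or the immunoglobulin genes, and were named from markers with the ending "-like". They gave 848 naive-like and 1006 memory-like B cells, 12112 GC B-like cells, 2067 plasma-lineage cells, 530 T cell-like and 742 myeloid-like cells, and 3542 cells that stayed unnamed. Naive-like and memory-like cells shared a cluster and were split only by having an Ighd UMI or not. A naive cell whose Ighd RNA was missed counts as memory-like. Haemoglobin genes led the unnamed cells. Their markers summed to 124047 CPM (defined below) in the 107 unnamed cells of Smc3 wt/- replicate 2, and to 112 to 3382 in the other libraries. The GC B-like cells were 5724 centroblast-like (CB-like) cells, 4272 cells in S phase, 1289 centrocyte-like (CC-like) cells and 827 recycling-like cells, led by Shisa8, Srm and Hspd1. Myc, one of the markers of recycling cells, was among the 10 leading genes of the CC-like and not of the recycling-like cells. The plasma-lineage cells were 565 cells resembling plasmablasts (PB-like) and 1502 resembling plasma cells (PC-like). Tnfrsf17 was itself among the 10 leading genes of the PC-like cells, although it was not used to cluster them, and the genes that were used come from the same cells. In GC B-like cells Smc3 itself was at 169, 175 and 164 CPM in the controls and at 161, 122 and 183 CPM in the heterozygous libraries (CPM as defined below), so the groups overlapped, and a 3′ tag outside the deleted exon does not check the deletion.

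The library labelled Smc3 wt/- replicate 2 stood apart. GC B-like cells were 10.5% of its kept cells against 65.3% to 71.9% in the other 5 libraries, plasma-lineage cells were 48.9% against 1.39% to 3.36%, and 639 of the 742 myeloid-like cells were in it. Its GC B-like cells also went partly against that name. In its CB-like cells Cd38, which GC B cells lower, was at 121 CPM against 13.8 to 17.6 in the other libraries. The 14 plasma cell markers, all detected, summed to 7490 in these cells against 3578 to 3895. The changes of the receptors are therefore given also without this library.

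Levels are CPM, for which the UMIs outside the immunoglobulin genes were summed over the cells of a class in a library and scaled to the same total. In PC-like cells the 14 plasma cell markers alone summed to 246205 to 396627 CPM, against 28707 to 112671 in PB-like cells. This lowers the CPM of the other genes in PC-like cells. The values of the 6 libraries are given in the order Smc3 wt/wt replicates 1, 2 and 3, then Smc3 wt/- replicates 1, 2 and 3. Fold changes are log2 values from edgeR quasi-likelihood fits on all UMIs, with the library as a block and SE as the error, so their scaling differs from that of the levels. The contrasts between GC B-like, naive-like and plasma-lineage cells share their classes pairwise and are not independent of each other.

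**Figure D1:**
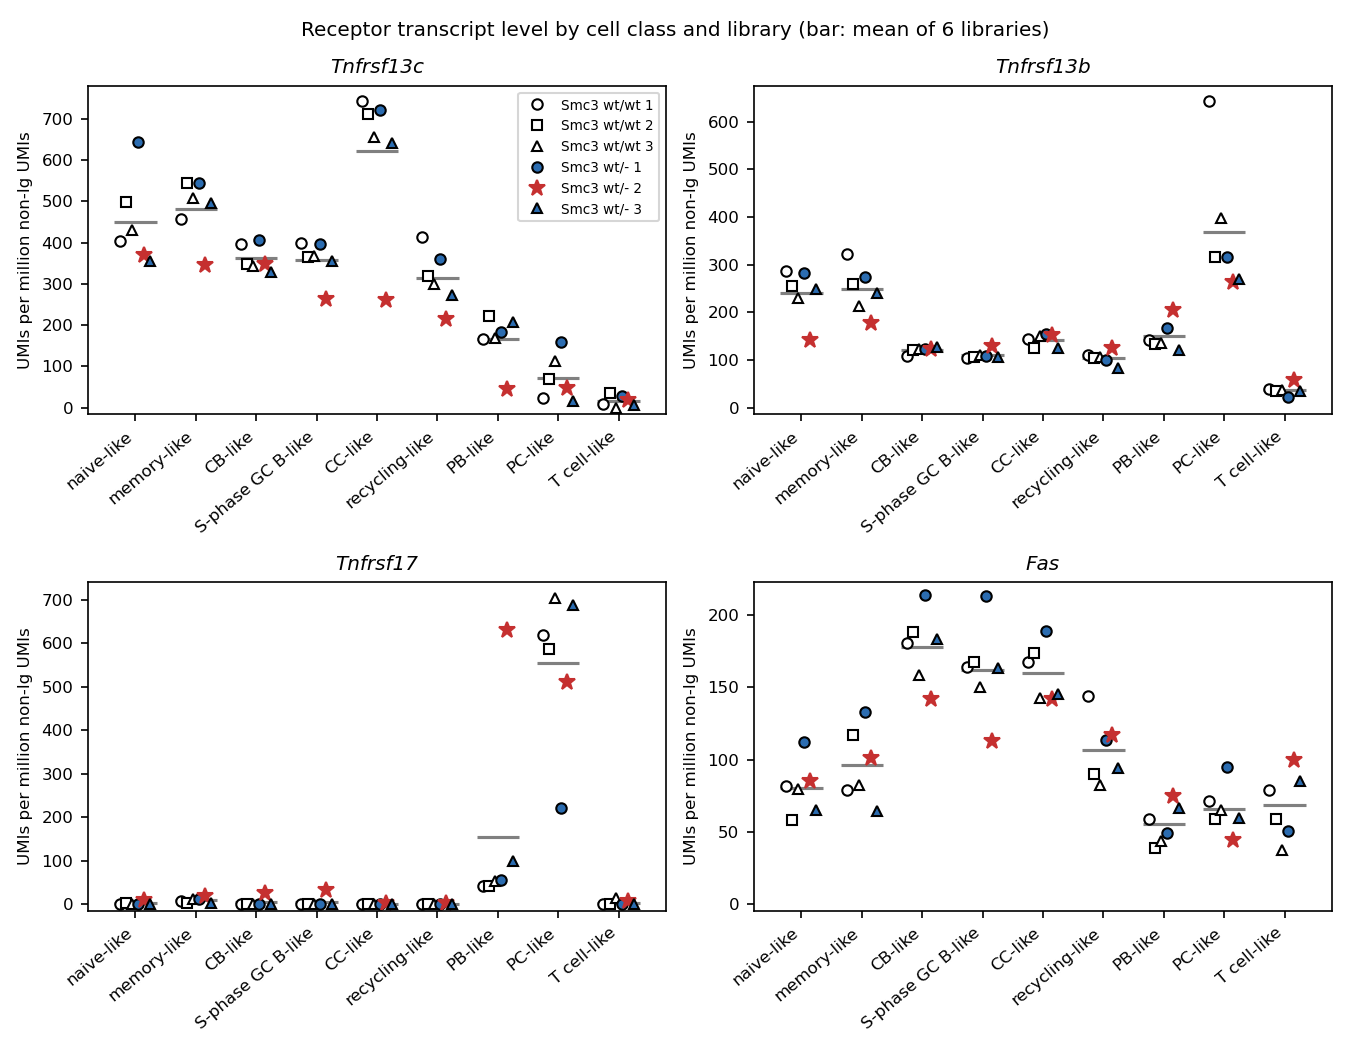
Level of each receptor (y axis, CPM of non-immunoglobulin UMIs) in 9 cell classes (x axis), 1 symbol per library, with the mean of the 6 libraries as a grey bar. Tnfrsf13c was highest in CC-like cells apart from the library Smc3 wt/- replicate 2 (star), Tnfrsf17 was near 0 outside PB-like and PC-like cells, and Fas had its highest mean in CB-like cells among the classes plotted.

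Tnfrsf13c was abundant in naive-like cells, remained abundant in the GC and was low in plasma cells. In naive-like cells its levels were 403, 499, 432, 643, 370 and 355 (mean 450 ± 107, SD, n = 6). In GC B-like cells they were 435, 377, 367, 419, 278 and 352 (mean 371 ± 55.6). The ranges overlapped, and 5 of the 6 libraries were lower in GC B-like cells. Between these classes 54.9% of the 7761 genes tested passed an adjusted p of 0.05 (26.7% higher and 28.2% lower), and so did the 3 receptors that passed the filter on low counts. Tnfrsf13c fell by 0.45 on the log2 scale (SE 0.10, edgeR adjusted p = 0.00149). This call was lost without the low-count filter (-0.25, edgeR adjusted p = 0.0531). It was also lost with a looser cell filter (-0.23, edgeR adjusted p = 0.0552), where the cells were clustered anew and 3165 cells led by Pxdc1, Apoe and Gsn, genes that lead the unnamed cells here, were named CC-like and so joined the GC B-like class. With the unnamed cells added to GC B-like cells and the cell filter as it was, the change was -0.35 (edgeR adjusted p = 0.00875). With the classes as first defined but without Smc3 wt/- replicate 2 it was -0.41 (edgeR adjusted p = 4.93e-05).

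Among the named GC classes, Tnfrsf13c was highest in CC-like cells, the class that resembles light-zone cells competing for antigen and T cell help. Its levels in CC-like cells were 742, 712, 656, 722, 261 and 640, and in CB-like cells they were 397, 347, 344, 406, 348 and 330. CC-like cells were higher in 5 of the 6 libraries, and Smc3 wt/- replicate 2 alone was lower in CC-like than in CB-like cells. In the CC-like cells of that library 14 of the 17 myeloid markers were detected and summed to 749, against 129 to 159 in the other libraries, and Lyz2, a defining myeloid gene, was at 79.4 against 1.05 to 11.4. The part of these markers in its low value was not tested. The change was 0.83 (SE 0.09, edgeR adjusted p = 1.63e-07), and 0.96 without that library (SE 0.04, edgeR adjusted p = 4.60e-18). Of the 8137 genes tested between CC-like and CB-like cells, 51.9% passed the threshold (26.9% higher and 25% lower).

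S-phase GC B-like cells (mean 358 ± 50.1) lay next to CB-like cells (362 ± 31.4), and recycling-like cells were at 314 ± 69.1. In memory-like cells the levels were 457, 545, 507, 545, 345 and 495, close to naive-like cells. Naive cells counted as memory-like would narrow the gap between these classes, and their share was not tested. Memory-like and naive-like cells differed by 0.10 on the log2 scale with a 95% interval from -0.07 to 0.27 (edgeR adjusted p = 0.581), where 7.28% of 4833 genes passed (3.58% higher and 3.7% lower) and none of the 3 receptors tested did.

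In PB-like cells Tnfrsf13c was at 167, 222, 169, 184, 44.5 and 206. In PC-like cells it was at 23.9, 70.3, 113, 158, 48.5 and 15.0, from only 1 to 14 UMIs per library outside Smc3 wt/- replicate 2. The lowest PB-like value was that of Smc3 wt/- replicate 2, and without it the PB-like mean was 190 ± 24.0 (n = 5). T cell-like cells, which should lack BAFF-R, were at 0 to 35.2, so the lower PC-like values lay within that background. Over the libraries, PC-like and PB-like cells differed by -0.36 on the log2 scale (SE 0.35, 95% interval -1.10 to 0.38, edgeR adjusted p = 0.496), from -0.75 to -0.11 on leaving out each library, and this step did not pass the threshold. Its direction turned with the looser cell filter (0.17) and without integration (0.028). The difference was -0.75 without Smc3 wt/- replicate 2 (edgeR adjusted p = 0.0807).

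For all plasma-lineage cells the levels of Tnfrsf13c were 146, 208, 163, 182, 47.6 and 192, below GC B-like cells in 6 of 6 libraries with no overlap. The fall from GC B-like cells was -1.03 (SE 0.16, edgeR adjusted p = 0.000426), and -0.83 without Smc3 wt/- replicate 2 (edgeR adjusted p = 2.17e-09). Of 8675 genes tested, 44.8% passed (22.5% higher and 22.3% lower), as did all 4 receptors. Against naive-like cells Tnfrsf13c fell by 1.60 (SE 0.18, edgeR adjusted p = 4.26e-06), and by 1.46 without that library (edgeR adjusted p = 3.82e-10), where 64.5% of 4733 genes passed (32.5% higher and 32% lower) and 3 of the 4 receptors did.

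Tnfrsf13b, the receptor for both ligands, had its lowest levels among B-lineage classes in the GC. Its levels were 286, 254, 231, 283, 142 and 248 in naive-like cells (mean 241 ± 52.5) and 111, 113, 118, 117, 132 and 113 in GC B-like cells (mean 117 ± 7.82). The groups did not overlap, and the GC B-like libraries were closer to each other than the naive-like libraries. Tnfrsf13b fell by 1.20 on the log2 scale from naive-like to GC B-like cells (SE 0.13, edgeR adjusted p = 1.71e-06), and by 1.32 without Smc3 wt/- replicate 2 (edgeR adjusted p = 1.31e-16).

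The GC subclasses were close together for Tnfrsf13b, with means of 121 ± 6.45 in CB-like, 111 ± 9.30 in S-phase, 142 ± 13.4 in CC-like and 105 ± 13.8 in recycling-like cells. The higher value of CC-like over CB-like cells, in 5 of 6 libraries, was 0.21 (SE 0.07, edgeR adjusted p = 0.0150). It was lost without Smc3 wt/wt replicate 3 (0.19, edgeR adjusted p = 0.0718), without Smc3 wt/- replicate 1 (0.18, edgeR adjusted p = 0.0726), without the library block (0.25, edgeR adjusted p = 0.0791) and without the low-count filter (0.15, edgeR adjusted p = 0.116). It was 0.19 without Smc3 wt/- replicate 2 (edgeR adjusted p = 0.0179). Memory-like cells (mean 248 ± 50.2) were higher than naive-like cells in 3 of 6 libraries, a log2 difference of 0.02 with a 95% interval from -0.17 to 0.21.

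In PB-like cells Tnfrsf13b was at 142, 133, 137, 168, 205 and 120, and in PC-like cells at 644, 316, 397, 316, 263 and 269. Each library was higher in PC-like than in PB-like cells and the groups did not overlap. Outside Smc3 wt/- replicate 2 these PC-like values rest on 10 to 49 UMIs per library. The rise was 1.71 (SE 0.22, edgeR adjusted p = 2.93e-05), and 2.0 without Smc3 wt/- replicate 2 (edgeR adjusted p = 4.12e-08). Of 3227 genes tested between PC-like and PB-like cells, 30.1% passed (14.8% higher and 15.3% lower), and so did 2 of the 4 receptors.

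Plasma-lineage cells as a whole held Tnfrsf13b at 217, 151, 164, 175, 251 and 132, above GC B-like cells in 6 of 6 libraries (0.93, SE 0.16, edgeR adjusted p = 0.000839), and the rise was 0.75 without Smc3 wt/- replicate 2 (edgeR adjusted p = 1.45e-07). Against naive-like cells the outcome depended on the plasma-lineage stage. All plasma-lineage cells differed from naive-like cells by -0.38 (95% interval -0.92 to 0.16, edgeR adjusted p = 0.196), and by -0.78 without Smc3 wt/- replicate 2 (edgeR adjusted p = 2.54e-06). PB-like cells alone were lower than naive-like cells by -0.75 (edgeR adjusted p = 0.00353), whereas PC-like cells alone were higher by 1.13 (edgeR adjusted p = 3.38e-05).

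Tnfrsf17 was almost restricted to the plasma lineage. GC B-like cells held 0, 3, 3, 3, 45 and 8 UMIs of it among 12112 cells, and naive-like cells held 0, 1, 0, 0, 4 and 0. PB-like cells were at levels of 41.9, 42.4, 53.3, 56.5, 630 and 100, and PC-like cells at 620, 586, 705, 221, 510 and 689. Outside Smc3 wt/- replicate 2 these PC-like values rest on 7 to 87 UMIs per library. No library of the plasma lineage overlapped with any library of the GC B-like or naive-like cells.

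From GC B-like to plasma-lineage cells Tnfrsf17 rose by 8.06 on the log2 scale (SE 0.59, edgeR adjusted p = 1.84e-06). Most of its GC B-like UMIs, 45 of 62, were in Smc3 wt/- replicate 2. Without that library the rise was 9.40, resting on 17 UMIs in GC B-like cells (SE 0.25, edgeR adjusted p = 2.81e-21). Against naive-like cells it rose by 6.65 (SE 0.33, edgeR adjusted p = 3.51e-09), a value that rests on 5 naive-like UMIs and on 1 without that library, where it was 7.21. Tnfrsf17 did not pass the low-count filter between GC B-like and naive-like, CC-like and CB-like, or memory-like and naive-like cells. Memory-like cells held 35 UMIs of it, 22 of them in Smc3 wt/- replicate 2, the CC-like cells held 3 and the unnamed cells 0.

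In Smc3 wt/- replicate 2, 3.99% of GC B-like cells had a Tnfrsf17 UMI. In the same library 2.10% of T cell-like cells and 1.41% of myeloid-like cells, which should lack BCMA, also had one. After thinning each cell to 1000 UMIs, the shares were 1.01% of its GC B-like and 0.87% of its T cell-like cells. The plasma cell markers were also raised in its T cell-like cells, at 6354 against 544 to 1371 in the others, with all 14 detected. The UMIs were less evenly spread in GC B-like cells, with 45 UMIs in 15 cells and up to 10 in 1 cell, than in T cell-like cells, with 3 UMIs in 3 cells. Myeloid-like cells held 14 UMIs in 9 cells and up to 6 in 1 cell. The levels were 19.0 CPM in GC B-like, 7.27 in T cell-like and 7.06 in myeloid-like cells, and whether the GC B-like UMIs came from these cells or from free RNA was not tested.

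Between the plasma-lineage stages Tnfrsf17 was higher in PC-like than in PB-like cells in 5 of 6 libraries, the exception being Smc3 wt/- replicate 2. The change was 3.08 (SE 0.46, edgeR adjusted p = 0.000105), and 3.87 without that library (SE 0.22, edgeR adjusted p = 1.95e-11). The PB-like cells of that library also differed in other ways. Immunoglobulin genes took 41.8% of their UMIs against 11.6% to 16% in the other libraries, and the 14 plasma cell markers summed to 112671 against 28707 to 42997. Their median of UMIs not from immunoglobulin genes was 4829.5 per cell against 11038 to 18395. The part of these differences in its Tnfrsf17 value was not tested.

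Fas, unlike Tnfrsf13b, had its highest levels among the named B-lineage classes in the GC. The unnamed cells were higher still, at a mean of 235 ± 52.6, and above GC B-like cells in 6 of 6 libraries. They held S1pr2, a receptor known from GC B cells, at 49.3 to 210 CPM against 2.5 to 20.7 in naive-like cells. In naive-like cells it was at 81.7, 58.4, 79.5, 112, 85.0 and 64.9 (mean 80.3 ± 18.7) and in GC B-like cells at 167, 163, 141, 192, 128 and 158 (mean 158 ± 21.9). The groups did not overlap. Fas rose by 0.82 on the log2 scale (SE 0.13, edgeR adjusted p = 8.27e-05), and by 0.94 without Smc3 wt/- replicate 2 (edgeR adjusted p = 1.30e-08).

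Among the GC subclasses the means of Fas were 178 ± 25 in CB-like, 162 ± 32.4 in S-phase, 160 ± 19.7 in CC-like and 107 ± 22.8 in recycling-like cells. Recycling-like cells were below CC-like cells in 6 of 6 libraries, although the ranges overlapped. The difference between CC-like and CB-like cells was small and not stable, at -0.15 (SE 0.06, edgeR adjusted p = 0.0408). It turned to 0.28 with a looser cell filter (edgeR adjusted p = 0.000392), where most cells named CC-like were of the cluster led by Pxdc1, and to 0.03 with doublets kept, and the call was lost on leaving out any of 4 of the 6 libraries.

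Those 4 were Smc3 wt/wt replicates 2 and 3 and Smc3 wt/- replicates 1 and 3, and over all 6 the differences ran from -0.17 to -0.11. Memory-like cells had Fas at a mean of 96.2 ± 25.7, a log2 difference from naive-like cells of 0.29 with a 95% interval from -0.01 to 0.60 (edgeR adjusted p = 0.272).

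In PB-like cells Fas was at 58.6, 38.8, 43.6, 49.4, 75.0 and 66.3, and in PC-like cells at 71.6, 58.6, 64.8, 94.7, 44.2 and 59.9. Plasma-lineage cells were below GC B-like cells in 6 of 6 libraries, a change of -1.24 (SE 0.16, edgeR adjusted p = 0.000141), and of -1.39 without Smc3 wt/- replicate 2 (edgeR adjusted p = 6.53e-11). Against naive-like cells they were lower by -0.54 (SE 0.18, edgeR adjusted p = 0.0159), and by -0.66 without that library (edgeR adjusted p = 0.00314). The call with all libraries was lost without Smc3 wt/wt replicate 3 (-0.45, edgeR adjusted p = 0.0707), without Smc3 wt/- replicate 1 (-0.43, edgeR adjusted p = 0.0639) and with PC-like cells alone (0.05, edgeR adjusted p = 0.976).

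PC-like cells were higher than PB-like cells in 4 of 6 libraries for Fas (0.49, edgeR adjusted p = 0.961), and 0.99 higher without Smc3 wt/- replicate 2 (edgeR adjusted p = 0.0339). Outside that library the PC-like Fas levels rest on 3 to 8 UMIs each. T cell-like cells, in which activated cells are known to carry FAS, were at 37.2 to 99.4.

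With Smc3 wt/- replicate 2 left out, memory-like and naive-like cells differed by 0.15 for Tnfrsf13c, -0.03 for Tnfrsf13b and 0.32 for Fas, with edgeR adjusted p from 0.348 to 0.919, and CC-like and CB-like cells by -0.17 for Fas (edgeR adjusted p = 0.0167).

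**Figure D2:**
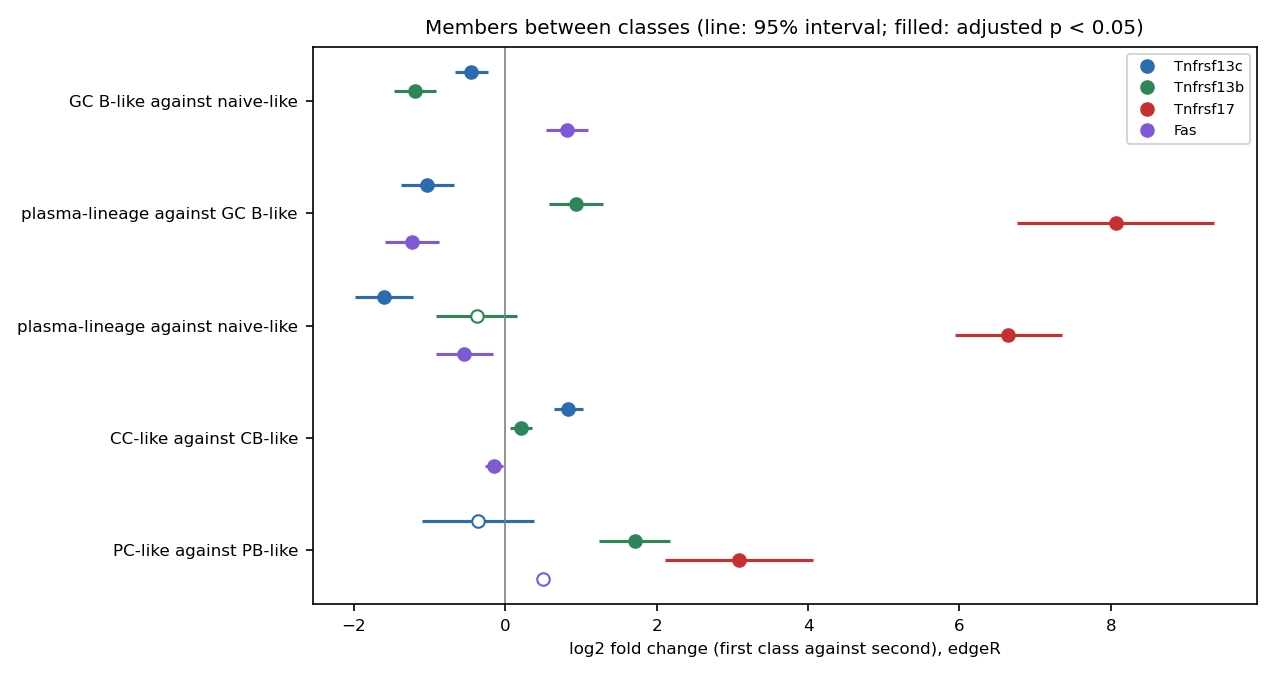
Log2 fold change of each receptor (x axis, edgeR) in 5 contrasts between cell classes (y axis), with 95% intervals as lines and filled points where the adjusted p was under 0.05. Tnfrsf13c and Fas lay below 0 from GC B-like to plasma-lineage cells, while Tnfrsf13b (0.93) and Tnfrsf17 (8.06) lay above 0, and no interval is drawn for Fas between PC-like and PB-like cells, where edgeR had raised its p.

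Ordered by mean level over 8 named B-lineage classes, Tnfrsf13c ran from CC-like through memory-like, naive-like, CB-like, S-phase, recycling-like and PB-like down to PC-like cells. Tnfrsf13b ran from PC-like through memory-like, naive-like, PB-like, CC-like, CB-like and S-phase down to recycling-like cells. Tnfrsf17 was highest in PC-like, then PB-like, then memory-like cells, and Fas ran from CB-like, S-phase and CC-like cells down to PC-like and PB-like cells. The ranges of neighbouring classes overlapped in every order except for Tnfrsf17 between PB-like and memory-like cells. For Tnfrsf13c, CB-like cells were above S-phase cells in 2 of 6 libraries. Without Smc3 wt/- replicate 2 these means were in the reverse order, at 365 and 377. The Tnfrsf13b means of PB-like and CC-like cells were both 140 without that library.

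Shares of cells with a UMI were compared after thinning each cell to 1000 UMIs, which left out 33 naive-like, 35 GC B-like and 58 T cell-like cells. Tnfrsf13c was then detected in means of 35.8% of naive-like, 31.2% of GC B-like, 45.4% of CC-like, 12.1% of PB-like and 1.95% of PC-like cells, against 1.11% of T cell-like cells. Without thinning these means were 59.0%, 80.5%, 87.0%, 66.2%, 21.2% and 2.15%. The thinned shares of Tnfrsf17 were 0.12% of naive-like, 0.18% of GC B-like, 9.65% of PB-like and 16.6% of PC-like cells, against 0.38% of T cell-like cells. For Tnfrsf13b they were 20.5%, 11%, 10.8% and 11.3%, against 3.33% of T cell-like cells.

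Immunoglobulin UMIs filled 66.1% to 69.9% of PC-like cells and count toward the 1000, which lowers every other share there. With 1000 UMIs from other genes, the shares of PC-like cells were 21.5% to 49.2% for Tnfrsf13b and 27.0% to 48.8% for Tnfrsf17. They were 1.19% to 13.1% for Tnfrsf13c, below the 30.4% to 49.2% of naive-like cells, and 4.5% to 11.2% for Fas, overlapping the 3.84% to 11.3% of naive-like cells. With 1000 UMIs of any gene, the means for Fas were 6.82% of naive-like, 15.6% of GC B-like, 4.58% of PB-like and 2.16% of PC-like cells.

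The levels were also followed along the share of immunoglobulin UMIs in each plasma-lineage cell, an axis that used none of the 4 receptors. In the other 5 libraries pooled, the bins of 0 to 20%, 20 to 50%, 50 to 70% and 70 to 100% held 177, 67, 41 and 37 cells. Of these, 176, 61, 2 and 0 were PB-like, so the bins largely repeat the split into PB-like and PC-like cells. Tnfrsf13c was at 199, 149, 104 and 60.6 in these bins, and Tnfrsf17 at 51.1, 159, 505 and 654. These are pooled cells, and the test of PC-like against PB-like cells over libraries did not pass for Tnfrsf13c (-0.36, edgeR adjusted p = 0.496). The upper bins, mostly PC-like cells, also carry the lowering of CPM given above. The 95% Poisson intervals of the lowest and highest bins did not overlap for either gene (183 to 216 against 29.0 to 111, and 43.2 to 59.9 against 537 to 790).

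Tnfrsf13b was at 135, 155, 336 and 424 in the same bins, and Fas at 47.7, 65.8, 63.8 and 54.5 with overlapping intervals. In Smc3 wt/- replicate 2, with 41, 194, 834 and 676 cells, Tnfrsf13c was low in every bin, at 65.4, 40.6, 46.0 and 50.2. Its Tnfrsf17 was high from the lowest bin on, at 415, 662, 550 and 490, and its Tnfrsf13b was at 144, 194, 256 and 273. Fas was at 78.4, 75.2, 47.8 and 43.8 there. The intervals cover counting error only, since cells of a library are not replicates.

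**Figure D3:**
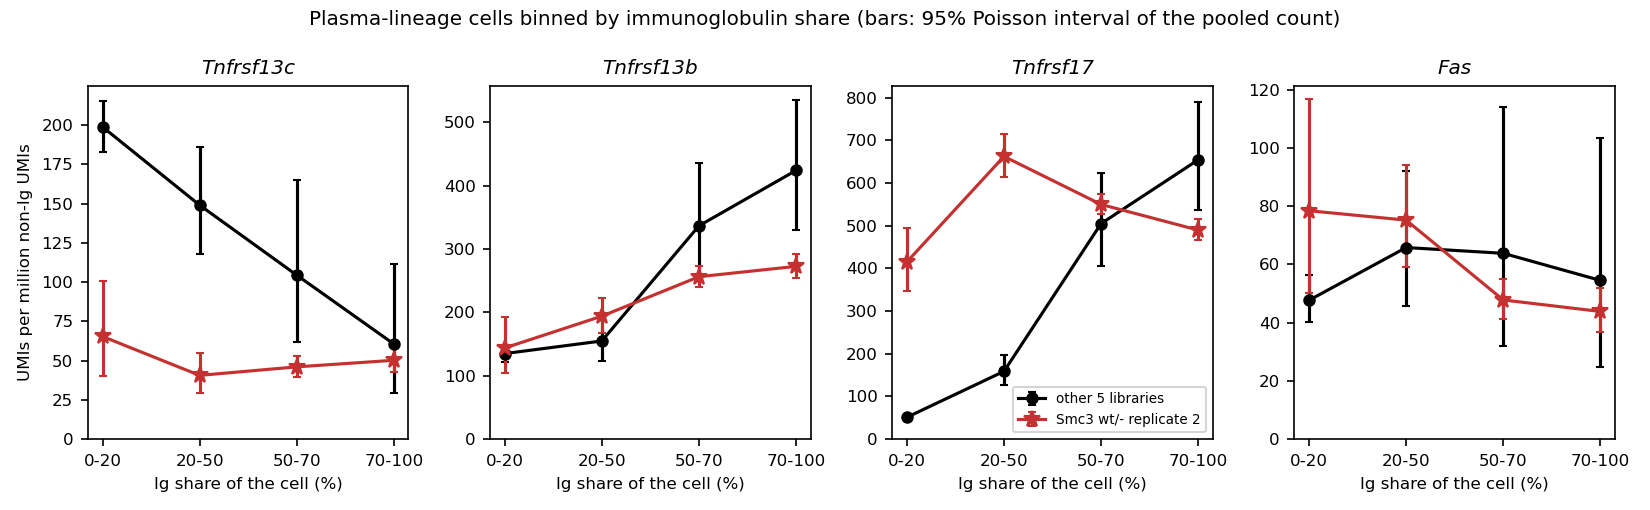
Level of each receptor (y axis, CPM of non-immunoglobulin UMIs) in plasma-lineage cells grouped by their immunoglobulin share (x axis, %), pooled over 5 libraries (black) and in Smc3 wt/- replicate 2 (red), with 95% Poisson intervals. In the 5 libraries Tnfrsf13c went from 199 to 60.6 and Tnfrsf17 from 51.1 to 654, whereas in the other library Tnfrsf13c stayed between 40.6 and 65.4.

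UMIs of Tnfrsf13c and Tnfrsf17 were also counted in the same cells. Of the 239 PB-like cells of the 5 libraries, 56.5% had UMIs of Tnfrsf13c alone (95% exact interval 49.9% to 62.9%), 18.0% of both genes (13.3% to 23.5%) and 8.79% of Tnfrsf17 alone (5.52% to 13.1%). Of the 83 PC-like cells of these libraries, 6.02% had Tnfrsf13c alone, 15.7% both (13 cells, 8.61% to 25.3%) and 62.7% Tnfrsf17 alone. Of the 387 T cell-like cells of these libraries, with medians of 1206 to 1941 non-immunoglobulin UMIs per cell, 2.33% had Tnfrsf13c alone, 0.52% Tnfrsf17 alone and 0 both, with an exact upper limit of 0.95%. The depth differed between the stages, with medians of 11038 to 18395 such UMIs per PB-like and 2725.5 to 5176 per PC-like cell in these libraries, so the shares of a single gene cannot be compared between them. In Smc3 wt/- replicate 2 the PB-like cells had Tnfrsf17 alone in 65.6% of 326 cells and Tnfrsf13c alone in 6.13%. Its 1419 PC-like cells had Tnfrsf17 alone in 67.0%, both in 16.6% and Tnfrsf13c alone in 2.54%. A cell without a UMI of a gene may still express it, and these shares were not thinned for depth.

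**Figure D4:**
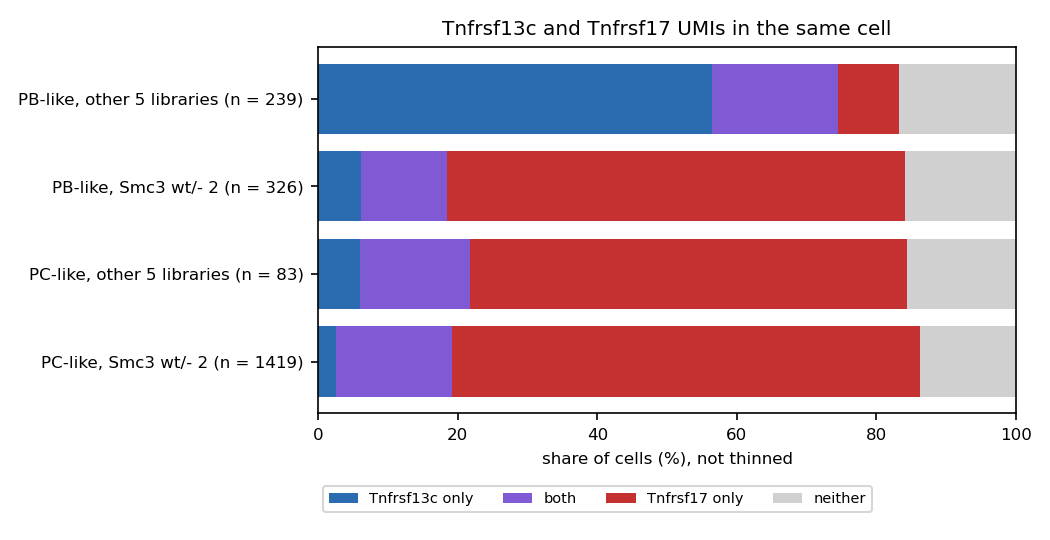
Share of cells (x axis, %) with UMIs of Tnfrsf13c only, of both genes, of Tnfrsf17 only or of neither, in PB-like and PC-like cells of 5 libraries pooled and of Smc3 wt/- replicate 2 (y axis, n in brackets). Tnfrsf13c alone took 56.5% of the PB-like cells of the 5 libraries and 6.02% of their PC-like cells, which had fewer non-immunoglobulin UMIs per cell.

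The comparison for which the libraries were made, Smc3 wt/- against Smc3 wt/wt, gave no call for any receptor. In naive or memory B-like, GC B-like and plasma-lineage cells 0 of 7044, 10900 and 5993 genes passed in edgeR (0%), with 139, 192 and 244 genes at an unadjusted p under 0.05, while DESeq2 called 0, 2 and 0. The largest difference among the receptors was that of Tnfrsf17 in plasma-lineage cells, at 1.66 (SE 0.82, 95% interval -0.22 to 3.54, edgeR adjusted p = 0.821). Its levels there were 128, 93.4 and 123 in the controls and 65.2, 536 and 145 in the heterozygous libraries, so the groups overlapped, and without Smc3 wt/- replicate 2 the difference was -0.10 (edgeR adjusted p = 0.994).

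In GC B-like cells the log2 differences by genotype were -0.15 for Tnfrsf13c (95% interval -0.47 to 0.17), 0.11 for Tnfrsf13b (-0.23 to 0.44) and 0.04 for Fas (-0.27 to 0.35). In naive or memory B-like cells they were -0.07 for Tnfrsf13c (-0.51 to 0.37), -0.16 for Tnfrsf13b (-0.55 to 0.22) and 0.16 for Fas (-0.35 to 0.67). In plasma-lineage cells they were -0.27 for Tnfrsf13c (-1.08 to 0.53), 0.42 for Tnfrsf13b (-0.53 to 1.37) and 0.47 for Fas (-0.19 to 1.12). Without Smc3 wt/- replicate 2 the differences for Tnfrsf13c, Tnfrsf13b and Fas were -0.05, -0.02 and 0.13 in GC B-like, 0.02, -0.03 and 0.02 in naive or memory B-like, and 0.04, -0.24 and 0.30 in plasma-lineage cells. Whether a change between classes differed by genotype was tested as an interaction, and no receptor passed. The lowest adjusted p was 0.153 in edgeR, for Tnfrsf17 between PC-like and PB-like cells (-2.68, SE 0.59). Without Smc3 wt/- replicate 2 the difference had the same direction (-1.31, SE 0.34, edgeR unadjusted p = 0.00104, adjusted p = 0.997). That fit holds only replicates 1 and 3 of Smc3 wt/-, and replicate 1 had 7 Tnfrsf17 UMIs in its 12 PC-like cells.

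The ligands were nearly undetected, and none passed the low-count filter in any fit. Over all kept cells Tnfsf13b (BAFF) had 80 UMIs, of which 34 were in myeloid-like cells, 15 in PC-like cells of Smc3 wt/- replicate 2 and 14 in GC B-like cells. Tnfsf13 (APRIL) had 3 UMIs and Tnfsf12 (TWEAK) had 18, 16 of them in myeloid-like cells. Fasl, the FAS ligand, had 20 UMIs, 19 of them in T cell-like cells.

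The list of BAFF-family signalling genes, namely TRAF adaptors, cIAP ubiquitin ligases and the alternative NF-kB pathway, held 12 genes, of which 11 were tested between GC B-like and naive-like cells. Of these 4 fell, near the share of 28.2% over all genes, and 0 rose against 26.7%, with a median log2 change of -0.41 against -0.03. The largest falls were those of Map3k14 (NIK, -1.35), Birc3 (cIAP2, -1.26) and Nfkb2 (-1.18). From CB-like to CC-like cells 6 of 12 rose and 2 fell (26.9% and 25% of all genes), led by Nfkb2 (2.0), Birc3 (1.87) and Relb (1.59), with a median of 0.36 against 0.00. Nfkb2 was at 28.6, 17, 15.7, 27.8, 66.4 and 19.7 in CB-like and at 114, 73.2, 79.9, 102, 85.1 and 84.2 in CC-like cells, so the ranges did not overlap.

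From GC B-like to plasma-lineage cells 5 of these 12 genes fell and 2 rose (22.3% and 22.5% of all genes), with a median of -0.45 against -0.05. Traf5, a TNF receptor adaptor, fell by 2.53 on the log2 scale, Traf1 by 1.68 and Map3k14 by 0.86. The 2 that rose were Traf3 (0.62), the adaptor that restrains NIK, and Birc2 (0.48). Against naive-like cells 6 of the 8 tested in plasma-lineage cells fell and 0 rose (32% and 32.5% of all genes), led by Traf5 (-2.68), Birc3 (-1.91) and Traf1 (-1.66). None of 8 genes passed between memory-like and naive-like cells, where 7.28% of all genes did, nor did either of 2 between PC-like and PB-like cells, where 30.1% did. Without Smc3 wt/- replicate 2 these counts were the same, except that 12 genes were tested between GC B-like and naive-like cells, that 4 rose and 6 fell from GC B-like to plasma-lineage cells, and that none was tested between PC-like and PB-like cells. The added calls there were Caml (0.56), Chuk (0.35) and Relb (-1.09), in a fit in which 55.9% of all genes passed against 44.8% with that library. In the other fits without it the shares were 55% for GC B-like against naive-like, 69% for plasma-lineage against naive-like, 53.5% for CC-like against CB-like, 4.9% for memory-like against naive-like and 39.3% for PC-like against PB-like cells.

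The receptor-shedding list held Adam10 and Adam17, proteases that cut receptors at the surface, and subunits of gamma-secretase, which cuts BCMA. All 6 were tested between GC B-like and naive-like cells, where 4 fell and 0 rose (28.2% and 26.7% of all genes), among them Ncstn (-0.86) and Aph1a (-0.51). Between plasma-lineage and GC B-like cells 3 rose and 0 fell (22.5% and 22.3% of all genes), among them Ncstn (1.25) and Psenen (0.41). Their medians were -0.49 and 0.36 against -0.03 and -0.05 over all genes. Adam17 fell against naive-like cells in the plasma lineage (-0.85), and Psenen rose from PB-like to PC-like cells (0.73). Without Smc3 wt/- replicate 2 Aph1a also rose from GC B-like to plasma-lineage cells (0.39), Psenen also fell against naive-like cells there (-0.40), and the other counts were the same.

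Fas death signalling genes moved in both directions. The counts were near the shares over all genes for GC B-like against naive-like and for CC-like against CB-like cells. Of 9 genes 3 rose from naive-like to GC B-like cells, among them Bid (0.83), the link from FAS to the mitochondria, and 2 fell, against 26.7% and 28.2% of all genes. The latter were Ripk1 and Xiap, both at -0.80, of which Xiap is a caspase inhibitor. From GC B-like to plasma-lineage cells 4 fell and 2 rose (22.3% and 22.5% of all genes), led by Bid (-1.46), Cflar (0.79), the inhibitor of caspase 8, and Ripk1 (0.78). Between CC-like and CB-like cells 3 rose and 2 fell (26.9% and 25% of all genes), with Bid at 1.01 and Fadd at -0.66. Of 6 tested between plasma-lineage and naive-like cells 1 rose and 4 fell (32.5% and 32% of all genes), among them Xiap (-1.51) and Bid (-0.74). Without Smc3 wt/- replicate 2 the counts in these 4 contrasts were the same, except that Cflar also fell from naive-like to GC B-like cells (-0.44), and from PB-like to PC-like cells Cflar rose (1.10).

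Of the survival genes Bcl2, Bcl2l1, Mcl1 and Pim2, 2 fell from naive-like to GC B-like cells, where 28.2% of all genes did, and all 4 rose from GC B-like to plasma-lineage cells, where 22.5% did. Bcl2, which GC B cells are known to silence, was at 193, 122, 184, 210, 277 and 191 in naive-like and at 3.06, 2.25, 2.58, 3.54, 79.2 and 2.69 in GC B-like cells. The highest GC B-like value by far was that of Smc3 wt/- replicate 2, whose GC B-like cells also held Cd38. In plasma-lineage cells Bcl2 was at 7.12, 15.4, 15.6, 10.0, 63.1 and 13.8, above GC B-like cells in every library except Smc3 wt/- replicate 2. Bcl2 (-5.30) and Mcl1 (-0.80) fell from naive-like to GC B-like cells and 0 of the 4 rose. The rises from GC B-like to plasma-lineage cells were led by Bcl2 at 1.90, Pim2 at 1.70 and Bcl2l1 at 1.11, with a median of the 4 of 1.40 against -0.05. All 4 also rose from CB-like to CC-like cells, where 26.9% of all genes did, led by Bcl2 (2.29), Bcl2l1 (1.61) and Pim2 (0.48).

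Against naive-like cells, plasma-lineage cells were lower for Bcl2 (-3.12) and higher for Pim2 (1.19). Bcl2 was lower in memory-like than in naive-like cells (-0.63), the only listed gene to pass there, and Bcl2 (3.17) and Mcl1 (1.10) rose from PB-like to PC-like cells. Without Smc3 wt/- replicate 2 the other counts of survival genes were the same, with Bcl2 at -6.17 from naive-like to GC B-like, 2.57 from GC B-like to plasma-lineage and 3.34 from CB-like to CC-like cells, but Bcl2 was not tested between PC-like and PB-like cells. Of the 8 other TNF receptors of B cells, 3 were tested and all fell from naive-like to GC B-like cells, where 28.2% of all genes did, Tnfrsf18 (GITR, -4.11), Cd27 (-1.80) and Cd40 (-1.17). Cd40, the receptor for T cell help, rose from CB-like to CC-like cells (1.69) and fell in plasma-lineage cells (-2.04 against GC B-like cells), while Cd27 did the reverse (-0.60 and 0.60). Against naive-like cells, where 32% of all genes fell, all 3 were lower in the plasma lineage, led by Cd40 (-3.29). The counts of these receptors did not change without Smc3 wt/- replicate 2. No listed gene passed between genotypes.

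**Figure D5:**
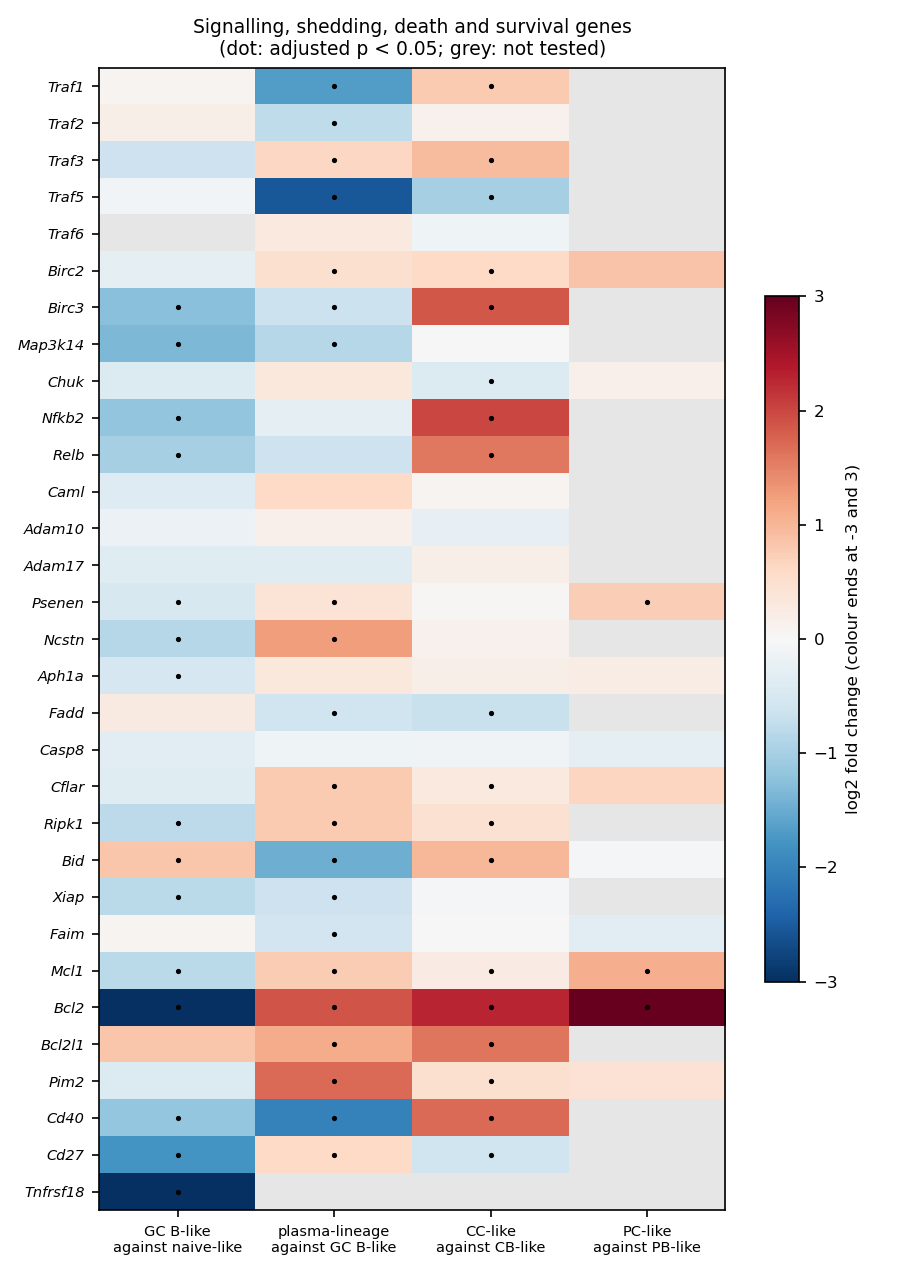
Log2 fold change (colour, ending at -3 and 3) of signalling, shedding, death and survival genes (y axis, genes reported here) in 4 contrasts between cell classes (x axis), with a dot where the edgeR adjusted p was under 0.05 and grey where the gene was not tested. Nfkb2 (2.0), Birc3 (1.87) and Relb (1.59) were higher in CC-like than in CB-like cells, and Bcl2 passed in all 4 contrasts.

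The genes whose pattern over 48 sums of 8 classes in 6 libraries was most like that of each receptor were ranked by Pearson r of log2 levels among 6916 genes, as a description, with r given for the highest and the lowest of those named. For Tnfrsf13c they were Sp110 (0.92), Arpc1b, Actr3, Ptpn1 and Twf2 (0.90). For Tnfrsf13b they were Kctd14 (0.88), Foxn3, Tapbp and Shisa5 (0.86). For Tnfrsf17 they were Ccr10 (0.97), Ssr4, Tram2, Edem2 and Selenom (0.96), and for Fas they were Bfsp2 (0.84), Parp8, Aacs, Supt4a and Hbb-bh1 (0.81). Among the receptors themselves r was -0.89 between Tnfrsf13c and Tnfrsf17, -0.60 between Tnfrsf17 and Fas, 0.57 between Tnfrsf13b and Tnfrsf17, 0.55 between Tnfrsf13c and Fas, -0.49 between Tnfrsf13b and Fas and -0.41 between Tnfrsf13c and Tnfrsf13b. The points share libraries, depth and composition.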

How the data were processed

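The deposited matrices hold raw UMI counts (unique molecular identifiers, whole numbers) of each gene in each barcode, which the authors made from 10x 3′ (v2) libraries with Cell Ranger. The submitters' processing notes name Cell Ranger, R 4.0.2, Seurat 4.0.0 and mm10. The authors' 3 further wild-type libraries were not analysed here. Groups and replicate numbers came from the sample titles.

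Barcodes with at least 500 genes and at most 10% mitochondrial UMIs were kept (21568 of 22939). Scrublet (scanpy 1.11.5, 0.8% expected per 1000 barcodes) removed 721 as doublets. Cells were clustered in Seurat 5.3.0 by reciprocal PCA (2000 variable genes, 30 components, 20 neighbours, resolution 0.5) without the receptors, listed genes, or immunoglobulin, mitochondrial and ribosomal genes. Cells of the naive or memory clusters with an Ighd UMI were called naive-like and the others memory-like. UMIs were summed per library and class, with at least 10 cells each, and tested with edgeR 4.0.16 (TMM, filterByExpr, quasi-likelihood, Benjamini-Hochberg over all genes tested, threshold 0.05). Class contrasts had the library as a block and genotype fits compared 3 with 3 libraries. R was 4.3.3, Python 3.11.15, and the fits were tested on simulated data. Intervals are at 95% (t for fits, exact binomial for shares, Poisson for counts) and cover only counting error for shares and pooled counts.

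The receptors and lists were chosen with earlier results of these data known. The text names all 4 receptors and all ligands, up to 3 genes per list and contrast with the largest change among those past the threshold, with further genes chosen after their values were seen where a count of 5 or fewer is spelled out, and the 5 genes most like each receptor (log2 levels plus 10, mean of at least 10). Some genes that this rule covers are not reported here, although counts and medians of lists include them. Deviations of libraries with the same replicate number correlated at 0.26, 0.18 and 0.13 in naive or memory B-like cells, above 0.1 in each pair. In GC B-like (0.24, 0.09, 0.19) and plasma-lineage cells (0.15, 0.05, 0.16) they did not all pass that limit. The labels give no pairing. Libraries with different numbers were not compared in this way, so these values do not show that the numbers pair. Alternatives were DESeq2 1.42.0, its size factors, immunoglobulin genes left out, no low-count filter, a looser cell filter (200 genes, 20%), doublets kept, no integration, a resolution of 1, 2 Ighd UMIs, no library block or a replicate block, thinning to 2000 UMIs, and leaving out each library. Other class definitions, list counts without replicate 2 labelled Smc3 wt/- and thinning to UMIs not from immunoglobulin genes were added once the data had been seen.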

Additional observations from a re-analysis of the deposited data

How the results depend on the processing

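Of 495 values of the receptors under an alternative, 458 kept their direction and their side of the threshold. The changes from GC B-like to plasma-lineage cells, and those of Tnfrsf13b and Fas from naive-like to GC B-like cells, did so under every alternative run. The cause was not tested for any change listed here. Between GC B-like and naive-like cells Tnfrsf13c went to -0.25 without the low-count filter and -0.23 with the looser cell filter, where neither passed the threshold. The looser cell filter, doublets kept and no integration each came with a new clustering, and under the looser filter 3165 cells led by Pxdc1 and Apoe were named CC-like. Between plasma-lineage and naive-like cells Fas went to -0.42 without the low-count filter, -0.50 without the library block and 0.053 with PC-like cells alone, and Tnfrsf13b to -0.75 with PB-like and 1.13 with PC-like cells alone. Between CC-like and CB-like cells Tnfrsf13b went to 0.15 without the low-count filter and 0.25 without the block, and Fas to -0.16 with DESeq2, 0.28 with the looser cell filter, 0.033 with doublets kept and -0.13 without the block. Without integration no cluster was named CC-like, so that contrast has no value there. Tnfrsf13b between memory-like and naive-like cells turned to -0.026 with doublets kept and -0.087 with 2 Ighd UMIs. Tnfrsf13c between PC-like and PB-like cells turned to 0.17 with the looser cell filter and 0.028 without integration, and Tnfrsf13b by genotype in GC B-like cells to -0.014 without integration.

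Leaving out each library gave ranges of -0.78 to -0.27 for Tnfrsf13b and -0.68 to -0.43 for Fas between plasma-lineage and naive-like cells, 0.18 to 0.26 for Tnfrsf13b and -0.17 to -0.11 for Fas between CC-like and CB-like cells, -0.032 to 0.055 for Tnfrsf13b between memory-like and naive-like cells, and 0.38 to 0.99 for Fas between PC-like and PB-like cells. By genotype the ranges were -0.20 to 0.052 for Tnfrsf13c in naive or memory B-like cells, -0.020 to 0.17 for Tnfrsf13b and -0.052 to 0.13 for Fas in GC B-like cells, and -0.55 to 0.037 for Tnfrsf13c, -0.24 to 0.69 for Tnfrsf13b and -0.10 to 2.15 for Tnfrsf17 in plasma-lineage cells.

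The number of genes called between plasma-lineage and naive-like cells was 3052, 4813 without the low-count filter and 1527 with PC-like cells alone. It was 4225 between CC-like and CB-like cells and 2684 without the block, and 972 between PC-like and PB-like cells and 1702 without the filter. Between memory-like and naive-like cells 352 genes were called, 138 with DESeq2, 44 without the block and 221 to 477 on leaving out each library. By genotype, 35 and 2 genes were called without the filter in naive or memory B-like and plasma-lineage cells, 2 by DESeq2 in GC B-like cells, and 0 to 1 in plasma-lineage cells on leaving out each library. With the replicate block no gene was called by genotype in any class. In naive or memory B-like cells, where each correlation passed 0.1, the values of the receptors were -0.08 for Tnfrsf13c, -0.18 for Tnfrsf13b and 0.13 for Fas. The block changed no other call. Depth limits Tnfrsf17 outside the plasma lineage and every PC-like value outside Smc3 wt/- replicate 2.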

Other observations

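The 3542 unnamed cells had Tnfrsf13c at 783, 677, 651, 745, 502 and 624 CPM of non-immunoglobulin UMIs, in the order Smc3 wt/wt replicates 1 to 3 and Smc3 wt/- replicates 1 to 3. Fas was at 273, 234, 220, 303, 148 and 234 in them, Tnfrsf13b at 153, 183, 182, 170, 94.1 and 175, and Tnfrsf17 had 0 UMIs. Adding these cells to the GC B-like class left the changes of the receptors from GC B-like to plasma-lineage cells at -1.15 for Tnfrsf13c, 0.87 for Tnfrsf13b, 8.20 for Tnfrsf17 and -1.31 for Fas, an alternative chosen after the data had been seen.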
